A study of Cannabis sativa with 12 samples.

Results

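Heat shock proteins and chaperones were followed in growing hemp hypocotyls without any heat treatment named in the labels. Contigs were chosen by name, from a gene symbol containing HSP, HSC70, HSF or CLPB or a description containing heat shock, HSP20, chaperone, DnaJ or BAG followed by a number. This gave 49 of the 3622 contigs of the table, of which 44 carried an Arabidopsis symbol or locus. They comprised 12 small heat shock proteins (small HSPs), 2 HSP100 proteins, 3 HSP90, 4 HSP70, 1 HSP60, 16 DnaJ proteins, 3 other chaperones and 8 heat shock transcription factors (HSFs). The words chaperone or DnaJ alone brought in 12 of them. Another 8 contigs of the same families (AtHSP101, HIP1 and 6 BAG contigs) did not contain these words and are described apart.

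Whole hypocotyls of Cannabis sativa cv. Santhica 27, a fibre hemp, were collected at ages of 6, 9, 15 and 20 days, counted from sowing, and are called H6, H9, H15 and H20. Every group had the same cultivar and the same incubator cycle of 16 h light at 25°C and 8 h dark at 20°C, and the labels name no allele, transgene or agent for any of them. Each time point had 3 libraries, every one from its own pool of 20 plants. The 12 pools belong to a single experimental batch, so p-values measure the spread between pools of that batch. The hour of sampling is not given in the sources used here. H6 belongs to the phase of elongation. By H9 elongation had ended and secondary growth, in which the stem thickens and its fibres and vessels lay down walls, was under way.

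The levels are RPKM, the reads of a contig per kilobase of its length scaled to the mapped reads of the library. Libraries held 13413483 to 25855405 mapped reads, of which 31.1 to 36.8% fell in the 3622 contigs, and the lowest count of a member in any library was 18 reads. The table holds only contigs that the authors had selected as changing among the 4 time points, so every test below is a call within that selection. Fold changes of the edgeR fit are given on the log2 scale with a standard error. This error is the size of the log2 fold change divided by the square root of edgeR's F statistic. A contig was called higher or lower where edgeR's adjusted p was under 0.05 and the fold change was more than 1 log2 unit in either direction. Markers of the tissue moved over the same days. The 3 CESA4, CESA7 and CESA8 contigs, which mark secondary walls, summed to 95.6 to 194 RPKM in the H6 pools, 443 to 694 RPKM in the H9 pools, 2178 to 2330 RPKM in the H15 pools and 2083 to 2352 RPKM in the H20 pools. The 6 contigs for sieve element occlusion proteins, which mark sieve elements, summed to 158 to 365, 272 to 562, 388 to 419 and 667 to 758 RPKM at these time points, and the 7 LHCA and LHCB contigs, which mark green tissue, to 3423 to 3644, 1888 to 1951, 1029 to 1110 and 1402 to 1481. None of these marker contigs was at 0 in a library, and their part in the results below was not tested. In whole hypocotyls, fewer cells of a type and less RNA per cell cannot be told apart.

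Chaperones bind unfolded proteins and either hold them or help them fold. In plants, small HSPs hold unfolding proteins without using ATP, HSP70 with its DnaJ partners and HSP90 with its cochaperones fold them with ATP, HSP100 proteins pull proteins out of aggregates, and HSP60 chaperonins enclose them in a chamber. Many are made on demand: HSFs bind the promoters of heat shock genes, with HSFA1 factors starting the response and HSFA2 prolonging it, while related members are made at all times to serve normal growth in the cytosol, plastids, mitochondria and endoplasmic reticulum.

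The 49 contigs together took a large part of the reads at H6 and a small part at H9 and H15. They held 3.08, 2.92 and 3.04% of the mapped reads in the H6 pools, 0.292, 0.286 and 0.278% in H9, 0.241, 0.237 and 0.235% in H15 and 0.985, 0.922 and 0.823% in H20. The pools of H6 lay above those of H20, and those of H20 above every pool of H9 and H15. Small HSPs held 1.13 to 1.62% of the mapped reads of the H6 pools, 0.0105 to 0.0170% of the H9 pools, 0.0103 to 0.0119% of the H15 pools and 0.160 to 0.182% of the H20 pools. DnaJ contigs varied much less, with 0.158 to 0.163%, 0.109 to 0.123%, 0.0838 to 0.0887% and 0.0878 to 0.0969% at the same time points. HSFs held 0.0490 to 0.0593% in the H6 pools, 0.0225 to 0.0246% in the H9 pools, 0.0292 to 0.0298% in the H15 pools and 0.0314 to 0.0380% in the H20 pools.

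**Figure D1:**
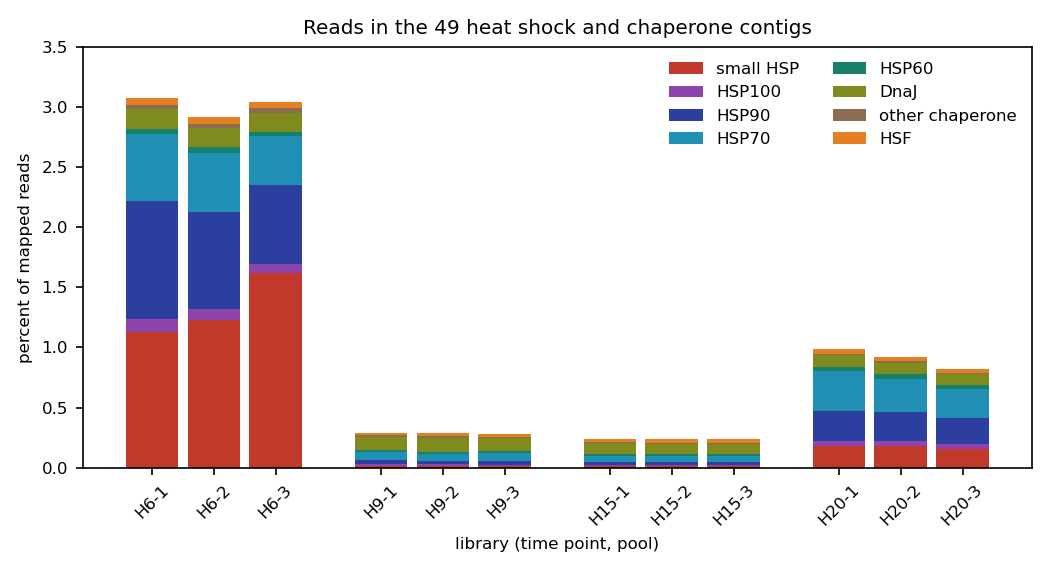
Stacked bars give the percent of the mapped reads of each library (3 pools per time point) that fell in the 49 contigs, split by class. The bars of H6 reach 2.92 to 3.08%, those of H9 and H15 stay between 0.235 and 0.292%, and those of H20 reach 0.823 to 0.985%.

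Between H6 and H9, 31 of the 49 contigs were called lower in H9 and 1 higher. Over all 3622 contigs, 17.8% were called lower and 18.4% higher in this comparison. The median log2 fold change of H9 against H6 was -1.31 over the members, against 0.05 over all contigs. Of the 20 contigs with the steepest falls in the whole table, 11 were members, among them 9 small HSPs. By the adjusted p alone, 38 members were lower and 6 higher, beside 36.2% and 38.3% of all contigs. Without the small HSPs, 20 of 37 members were called lower, with a median of -1.06.

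Between H9 and H15 fewer members changed, and in both directions. In H15, 6 were called higher than in H9 and 6 lower, where 19% of all contigs were called higher and 25.1% lower, and the median was -0.24 against -0.26 over all contigs. By the adjusted p alone, whatever the size of the change, 12 members were higher and 17 lower, beside 35.4% and 45.6% of all contigs. With the fold limit, TMM factors and DESeq2 each called 9 members higher and 5 lower. TMM also turned the balance of all contigs, to 822 higher and 753 lower, against 689 and 908 with mapped totals.

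Between H15 and H20 the direction was the opposite of that in the first interval. In H20, 24 members were called higher than in H15 and 3 lower, where 5.58% of all contigs were called higher and 8.01% lower. The median was 0.94 for the members and -0.04 for all contigs. The adjusted p alone gave 31 members higher and 8 lower, beside 18.1% and 23% of all contigs. H9 against H6 and H20 against H15 share no library, and 24 of the 49 members (48.98%) were called lower in H9 than in H6 and higher in H20 than in H15, against 3.45% of all contigs (125 of 3622). They were 11 of 12 small HSPs, both HSP100 contigs, the 3 HSP90 contigs, 2 of 4 HSP70 contigs, HSP60, 3 of 16 DnaJ contigs, AT4G02450 and 1 of 8 HSFs. Another 7 members were called lower in H9 and not called higher in H20 against H15. This share is near that of all contigs, of which 17.8% were called lower in H9 and 3.45% in both ways. A further 6 members were called in none of the 4 comparisons, for which the share of all contigs was not counted.

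**Figure D2:**
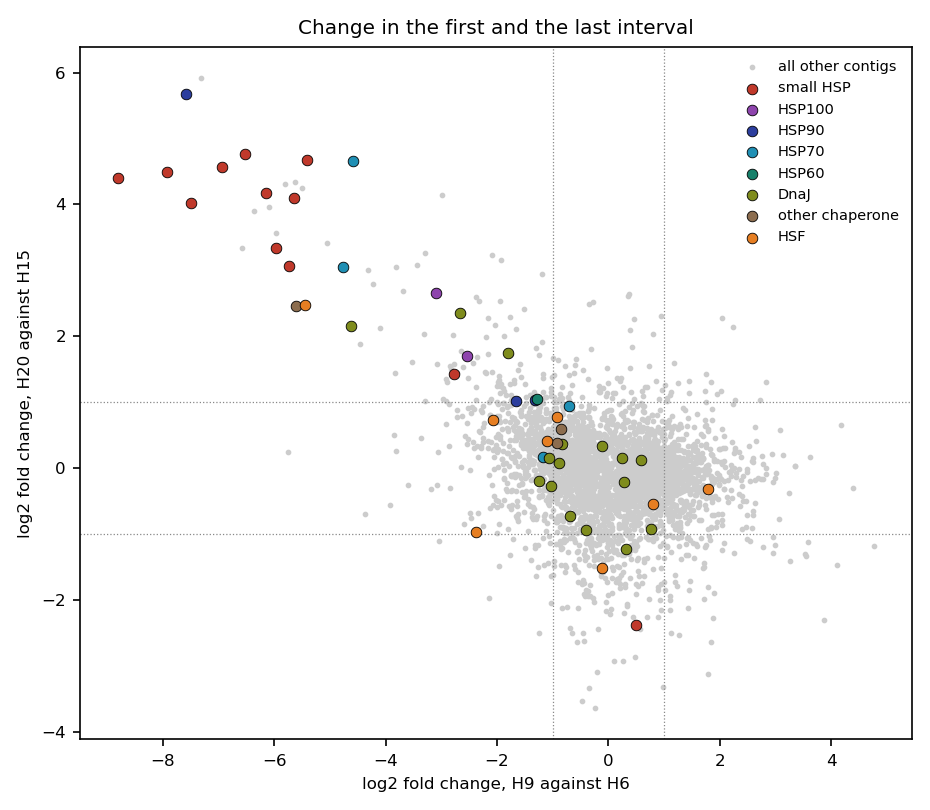
Each point is a contig, with its log2 fold change of H9 against H6 on the x axis and of H20 against H15 on the y axis. Grey points are the other contigs of the table, coloured points the 49 members by class, and dotted lines mark a log2 fold change of 1 in size. Small HSPs other than AT4G21870, HSP90.1, Hsp70b and HSFA2 lie at the upper left, most DnaJ contigs and HSFs near the centre. AT4G21870 lies at the lower right, at 0.49 and -2.38.

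H20 did not equal H6. In H20, 26 members were called lower than in H6 and 5 higher, where 41.5% of all contigs were called lower and 32.1% higher, with medians of -1.14 for the members and -0.68 for all contigs. The adjusted p alone gave 5 members higher and 38 lower, beside 40.1% and 53.5% of all contigs. The mean was highest in H6 for 39 of the 49 members (79.6%), against 40.6% of all contigs. DESeq2, whose size factors come from the selected contigs, shifted the median of all contigs by 0.21 in H9 against H6, 0.16 in H15 against H9 and 0.39 in H20 against H6, and TMM by 0.14 in H15 against H9. DESeq2 called 909 contigs of the table higher and 458 lower in H9 than in H6, against 665 and 646 here, yet still called 27 members lower and 2 higher.

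**Figure D3:**
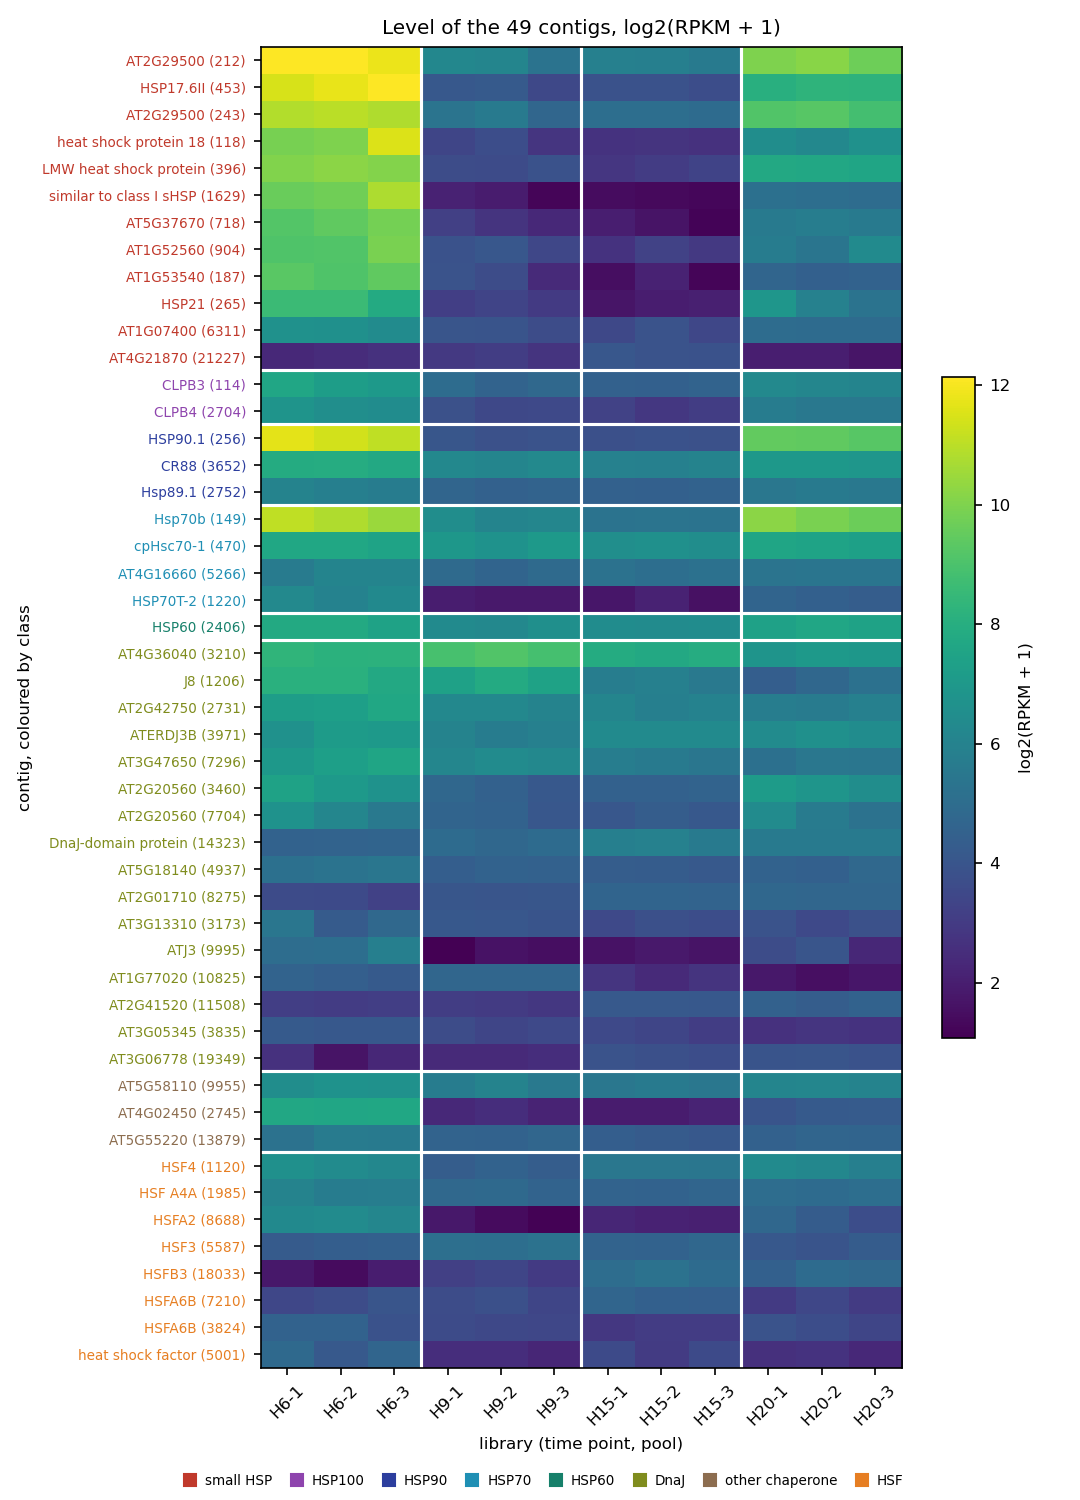
Rows are the 49 contigs (name and contig number), grouped and coloured by class, columns the 12 libraries by time point and pool, and the colour is log2(RPKM + 1). The small HSP rows other than AT4G21870 are bright in the H6 columns, dark in H9 and H15 and intermediate in H20. The row of AT4G21870 is brightest in H15 and darkest in H20, and the DnaJ and HSF rows are mixed.

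The small HSPs had larger median changes in H9 against H6 and in H20 against H15 than any other class. Their median log2 fold change was -6.05 in H9 against H6, -0.69 in H15 against H9, 4.14 in H20 against H15 and -3.01 in H20 against H6. AT2G29500 (contig 212), a class I small HSP of the cytosol in Arabidopsis, was the most abundant member, with 4506, 4456 and 3593 RPKM in H6, 72.4, 67.99 and 37.8 in H9, 59.1, 57.5 and 48.6 in H15 and 1022, 1137 and 835 in H20. Every H6 and H20 pool lay far above the H9 and H15 pools, which overlapped (log2 fold change -6.14 ± 0.26, edgeR adjusted p = 3.21e-09 for H9 against H6; log2 fold change 4.18 ± 0.24, edgeR adjusted p = 1.08e-07 for H20 against H15). Another contig with the same name (243) had 1856, 2041 and 1793 RPKM in H6, 39.2, 48.1 and 25.7 in H9, 32.9, 33.1 and 29.8 in H15 and 564, 613 and 462 in H20. Reads of near-identical copies may be split between these contigs, so their separate levels are uncertain. HSP17.6II, a class II small HSP of the cytosol, had 2873, 3485 and 4417 RPKM in H6, 16.5, 17.5 and 10.2 in H9, 13.4, 13.5 and 11.9 in H15 and 264, 306 and 303 in H20. Its H9 and H15 pools overlapped, and the mean in H9 was 0.411% of that in H6 (log2 fold change -7.93 ± 0.26, edgeR adjusted p = 2.61e-10).

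The steepest fall in the whole table was that of contig 1629, annotated as similar to a class I small HSP. It had 781, 862 and 1746 RPKM in H6, 3.38, 2.83 and 1.36 in H9, 1.70, 1.59 and 1.41 in H15 and 34.9, 33.1 and 31.2 in H20. The pools of H9 and H15 overlapped at the bottom of the range, and the pool H6-3 stood above the other H6 pools. The change was large in the first interval (log2 fold change -8.80 ± 0.39, edgeR adjusted p = 5.08e-09) and smaller in the last (log2 fold change 4.40 ± 0.36, edgeR adjusted p = 2.47e-06), so that H20 reached 2.93% of H6. Contig 118, described as heat shock protein 18, had 948, 1032 and 2989 RPKM in H6, 9.55, 12.1 and 5.83 in H9, 5.54, 5.67 and 5.24 in H15 and 90.7, 74.99 and 101 in H20. H6-3 was again the highest, at 3.15 times H6-1, and all 3 H6 pools exceeded all others (log2 fold change -7.50 ± 0.49, edgeR adjusted p = 1.03e-07 for H9 against H6).

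The small HSPs placed in organelles here, HSP21, AT5G37670 and AT1G52560, followed the same course. Their log2 fold changes were -5.42, -6.93 and -5.73 in H9 against H6 and 4.67, 4.57 and 3.06 in H20 against H15. HSP21, the plastid small HSP, had 397, 390.5 and 230.4 RPKM in H6, 7.71, 9.16 and 6.83 in H9, 2.31, 2.97 and 3.13 in H15 and 119, 59.7 and 38.5 in H20. Its H20 pools spread over 3.08-fold, with H20-1 the highest (log2 fold change 4.67 ± 0.40, edgeR adjusted p = 3.51e-06 for H20 against H15). It was also among the 3 of 12 small HSPs called lower in H15 than in H9 (log2 fold change -1.48 ± 0.39, edgeR adjusted p = 0.00368), a share near the 25.1% of all contigs. The others were AT5G37670 (log2 fold change -1.5), which is peroxisomal in Arabidopsis, and AT1G53540 (-2.15), a class I protein. The lowest counts in any library were 40 reads for HSP21, 18 for AT5G37670 and 22 for AT1G53540. Leaving out H9-3 or H15-2 added AT1G52560, a mitochondrial small HSP in Arabidopsis, to this group (-1.09 and -1.11, against -0.92). The contig described as LMW heat shock protein (396), whose description names no compartment, gave -6.52 ± 0.16 in H9 against H6 and 4.77 ± 0.15 in H20 against H15, on the log2 scale. Of the 11 small HSPs called lower in H9, AT1G07400 had the smallest changes, -2.78 ± 0.17 and 1.42 ± 0.16.

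AT4G21870, a small HSP outside the main classes that was singled out after its values were seen, went the other way. It had 4.13, 4.58 and 5.38 RPKM in H6, 6.64, 7.54 and 5.66 in H9, 16.1, 14.1 and 13.4 in H15 and 3.09, 2.99 and 2.28 in H20. Its H15 pools were the highest and its H20 pools the lowest, with no overlap between time points. The contig was called higher in H15 than in H9 (log2 fold change 1.13 ± 0.19, edgeR adjusted p = 0.000113) and lower in H20 than in H15 (log2 fold change -2.38 ± 0.20, edgeR adjusted p = 3.1e-06).

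**Figure D4:**
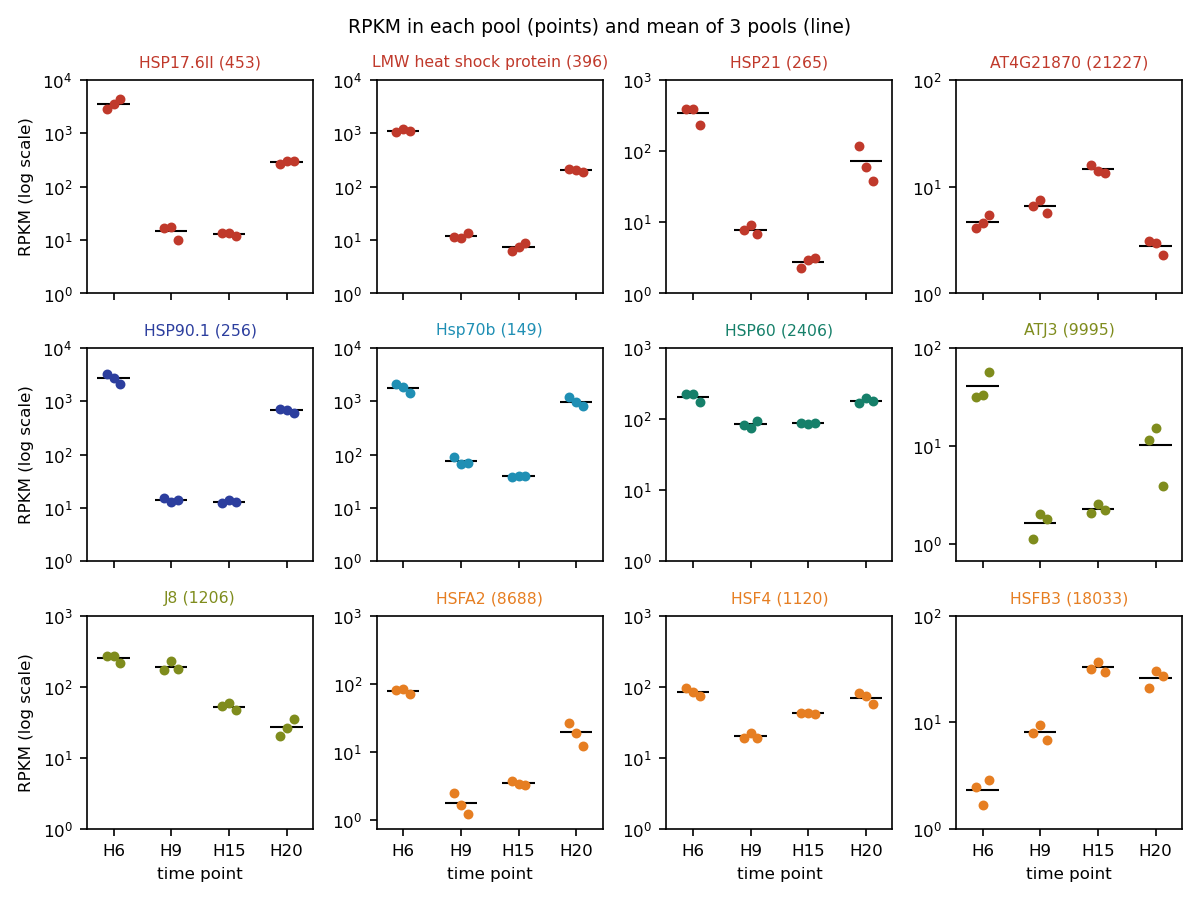
Points are the RPKM of single pools (3 per time point, log scale), and lines the means, for 12 of the 49 contigs, whose numbers stand in parentheses. HSP17.6II, LMW heat shock protein, HSP21, HSP90.1, Hsp70b and HSFA2 are lowest in H9 and H15, AT4G21870 and HSFB3 are highest in H15, and J8 is lowest in H20.

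HSP90.1, the heat-inducible cytosolic HSP90 of Arabidopsis, changed as much as the small HSPs. It had 3297, 2669 and 2138 RPKM in H6, 15.3, 13.04 and 13.9 in H9, 12.6, 13.8 and 13.1 in H15 and 723, 688 and 609 in H20. The H9 and H15 pools overlapped within a narrow range, and H9 stood at 0.521% of H6 (log2 fold change -7.59 ± 0.20, edgeR adjusted p = 3.29e-11). The rise in H20 against H15 was the largest of any member (log2 fold change 5.68 ± 0.18, edgeR adjusted p = 5.33e-10), and brought the contig to 24.9% of its mean in H6. Its organelle relatives changed far less. CR88, the plastid HSP90, had 234, 245 and 214 RPKM in H6, 74.7, 68.9 and 76.03 in H9, 60.3, 58.1 and 63.8 in H15 and 125, 125 and 119 in H20, and Hsp89.1, the mitochondrial one, had 64.3, 56.8 and 51.6 RPKM in H6, 24.5, 21.9 and 23.4 in H9, 21.8, 21.2 and 22.6 in H15 and 42.99, 47.3 and 45.02 in H20. In both, the pools of H6 were highest and those of H20 next. The log2 fold changes of H9 against H6 were -1.66 ± 0.09 and -1.31 ± 0.10 (edgeR adjusted p = 2.55e-08 and 4.69e-07). CR88 passed the fold limit in H20 against H15 narrowly, at 1.02, and missed it at 0.99 without H15-2 or with TMM factors.

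The HSP70 class was split in the same manner. Hsp70b, an inducible cytosolic HSP70, had 2138, 1821 and 1443 RPKM in H6, 90.12, 66.5 and 69.7 in H9, 38.3, 39.5 and 38.8 in H15 and 1186, 957 and 810.2 in H20. H6 and H20 did not overlap with each other or with H9 and H15 (log2 fold change -4.58 ± 0.20, edgeR adjusted p = 4.5e-09 for H9 against H6, log2 fold change 4.66 ± 0.20, edgeR adjusted p = 1.24e-08 for H20 against H15). At 54.7% of H6, its H20 mean was nearer to H6 than that of any small HSP called lower in H9. HSP70T-2, a truncated HSP70, had 76.2, 62.04 and 78.8 RPKM in H6, 2.86, 2.57 and 2.53 in H9, 2.33, 3.40 and 2.02 in H15 and 24.2, 20.98 and 19.3 in H20, with H9 and H15 overlapping. Its H9 mean was 3.67% of that in H6 (log2 fold change -4.77 ± 0.20, edgeR adjusted p = 3.21e-09).

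Members of this class that serve organelles changed less. AT4G16660, an HSP70 of the endoplasmic reticulum, had 50.1, 66.8 and 66.3 RPKM in H6, 28.7, 23.8 and 29.1 in H9, 37.3, 32.8 and 36.5 in H15 and 38.9, 40.8 and 40.3 in H20. Its H9 pools were the lowest (log2 fold change -1.17 ± 0.13, edgeR adjusted p = 4.87e-06 for H9 against H6, and -0.95 with DESeq2), and H20 against H15 did not pass the test (0.17 on the log2 scale, edgeR adjusted p = 0.294). cpHsc70-1, the HSP70 of the plastid stroma, had 200.5, 201 and 181 RPKM in H6, 122, 106 and 132 in H9, 92.6, 97.7 and 89.8 in H15 and 192, 181 and 166 in H20. It was called in no comparison, while its log2 fold changes of -0.70 in H9 against H6 and 0.94 in H20 against H15 both had an adjusted p under the limit (edgeR, 7.4e-05 and 2.65e-05). The mitochondrial chaperonin HSP60 had 221, 224 and 174 RPKM in H6, 82.3, 75.8 and 94.5 in H9, 88.2, 85.3 and 87.7 in H15 and 169, 197 and 176 in H20. H20 overlapped with H6, and H20 against H15 gave a log2 fold change of 1.05, or 0.99 without H20-2.

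Both HSP100 contigs code for organelle forms. CLPB3, of the plastid, had 195, 148 and 131 RPKM in H6, 30.7, 23.5 and 27.2 in H9, 22.2, 20.9 and 22.99 in H15 and 77.5, 70.1 and 67.2 in H20, and CLPB4, of mitochondria, had 109.7, 93.5 and 87.1 RPKM in H6, 13.4, 10.1 and 10.4 in H9, 8.51, 6.31 and 7.60 in H15 and 51.9, 44.9 and 44.8 in H20. The order was H6, H20, H9 and H15 in both, with no overlap between any of these time points. Values of H9 against H6 were -2.54 ± 0.15 and -3.10 ± 0.16 (edgeR adjusted p = 5.21e-08 and 1.22e-08), and of H20 against H15 1.70 ± 0.15 and 2.66 ± 0.15. Their calls in H20 against H6 rested on values just past the limit, -1.14 and -1.03. Without H6-1 these were -0.96 and -0.93, with DESeq2 -0.74 and -0.64.

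Many DnaJ proteins deliver clients to HSP70 and stimulate its ATPase, but this class was set only by the word DnaJ in the description. It includes AT3G47650, described by a DnaJ/Hsp40 cysteine-rich domain, for which this function is not implied. The DnaJ contigs did not move as a block. In H9, 6 of 16 were called lower than in H6 (17.8% of all contigs), with a class median of -0.76. In H20, 3 were called higher than in H15 and 1 lower (5.58% and 8.01% of all contigs). Against H6, 4 of the 16 were called higher in H20 and 8 lower, shares near those of all contigs (32.1% and 41.5%). ATJ3, a cytosolic DnaJ of general use in Arabidopsis, had 31.6, 32.8 and 57.3 RPKM in H6, 1.12, 2.04 and 1.80 in H9, 2.08, 2.57 and 2.22 in H15 and 11.5, 15.2 and 3.94 in H20. The H9 pools were below the H15 pools by a small margin, and H20-3 stayed well below the other H20 pools (log2 fold change -4.62 ± 0.46, edgeR adjusted p = 2.59e-06 for H9 against H6; log2 fold change 2.15 ± 0.42, edgeR adjusted p = 0.00158 for H20 against H15). AT2G20560 was represented by contigs of unlike length whose reads may be shared. The longer contig, 3460, had 173, 135 and 105 RPKM in H6, 26.1, 22.03 and 16.7 in H9, 22.1, 21.7 and 23.2 in H15 and 139.9, 114 and 89.6 in H20. The shorter, 7704, had 103, 70.8 and 45.3 RPKM in H6, 24.1, 22.5 and 15.8 in H9, 15.8, 19.5 and 16.2 in H15 and 84.98, 50.1 and 37.4 in H20. In both, H6 and H20 overlapped, as did H9 and H15, and H20 stood at 83.3% and 78.7% of H6. The longer contig gave -2.67 ± 0.22 in H9 against H6 and 2.36 ± 0.21 in H20 against H15 (edgeR adjusted p = 6.05e-07 and 5.83e-06).

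Another group of DnaJ contigs was called lower in H20 than in H6. J8, a small plastid DnaJ, had 274, 273 and 213 RPKM in H6, 169, 228 and 175 in H9, 52.9, 58.2 and 46.5 in H15 and 20.1, 26.8 and 35.5 in H20. H6 and H9 overlapped, the H15 pools lay below them and the H20 pools below those of H15 (log2 fold change -1.86 ± 0.20, edgeR adjusted p = 3.12e-06 for H15 against H9; log2 fold change -3.21 ± 0.21, edgeR adjusted p = 1.83e-08 for H20 against H6). AT4G36040, called J11 in Arabidopsis and also plastidic, was the most abundant DnaJ contig, with 319, 285 and 293 RPKM in H6, 477, 565 and 474 in H9, 235, 218 and 239.7 in H15 and 112, 130.1 and 122 in H20. H9 was the highest time point here, H20 the lowest, and no time points overlapped (log2 fold change -1.13 ± 0.10, edgeR adjusted p = 1.07e-06 for H15 against H9, a call lost at -0.99 with TMM factors and -0.98 with DESeq2). AT1G77020 was likewise highest in H9 and was called lower in each later step, at -2.28 in H15 against H9 and -1.23 in H20 against H15, which limma on log2(RPKM + 1) put at -0.95, under the limit. AT2G42750 had 150.1, 157 and 199.8 RPKM in H6, 74.8, 74.2 and 64.1 in H9, 68.1, 56.7 and 62.5 in H15 and 54.3, 50.05 and 59.1 in H20. Its H6 pools lay above all others and H9, H15 and H20 lay close together (log2 fold change -1.25 ± 0.13, edgeR adjusted p = 3.5e-06 for H9 against H6).

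AT3G47650, the ortholog of an Arabidopsis factor for Rubisco assembly, AT3G05345 and AT3G13310 were also called lower in H20 than in H6, at -1.98, -1.59 and -1.21. The call of AT3G13310 rested on H6-1, at 42.2 RPKM against 18.1 and 27.0 in the other H6 pools, and was -0.85 without it and -0.82 with DESeq2. ATERDJ3B, a DnaJ of the endoplasmic reticulum, was called lower in H9 than in H6 at -1.06, which became -0.96 without H6-2, -0.98 without H9-2 and -0.85 with DESeq2. AT3G47650 was called lower in the same comparison at -1.03, and was at -0.88 without H6-3, -0.98 without H9-1 and -0.82 with DESeq2. AT5G18140 was called in no comparison, with means of 38.3, 21.4, 18.4 and 23.7 RPKM from H6 to H20.

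The 4 DnaJ contigs called higher in H20 than in H6, where 32.1% of all contigs were, were AT3G06778 (1.93 ± 0.25), AT2G41520 (1.48 ± 0.10), AT2G01710 (1.35 ± 0.12) and contig 14323, described as a DnaJ-domain protein (1.04 ± 0.10), all at an edgeR adjusted p of 6.77e-06 or less. Their means in H20 were 14.3, 21.2, 25.9 and 48.2 RPKM, against 3.78, 7.59, 10.2 and 23.4 RPKM in H6. AT3G06778 and AT2G41520 were called higher in H15 than in H9, at 1.53 and 1.27.

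The 3 other chaperones differed among themselves. AT4G02450, a p23 cochaperone of HSP90 in Arabidopsis, had 207, 199 and 201 RPKM in H6, 4.14, 4.86 and 3.53 in H9, 2.76, 2.78 and 3.58 in H15 and 14.5, 17.7 and 18.3 in H20. The H9 and H15 pools overlapped far below those of H6, and H20 came to 8.33% of H6 (log2 fold change -5.60 ± 0.16, edgeR adjusted p = 1.09e-10 for H9 against H6; log2 fold change 2.46 ± 0.16, edgeR adjusted p = 2.72e-07 for H20 against H15). AT5G55220, a plastid trigger factor, had 37.2, 50 and 48.9 RPKM in H6, 23.4, 22.6 and 25.4 in H9, 20.2, 18.1 and 16.4 in H15 and 22.1, 25.02 and 23.9 in H20. AT5G58110, described as a chaperone-binding ATPase activator, had 90.8, 103 and 100.4 RPKM in H6, 52.2, 65.2 and 45.5 in H9, 43.4, 47.5 and 42.7 in H15 and 67.3, 70.7 and 64.8 in H20. In both, H6 was highest, no change passed the fold limit, and the log2 fold changes of H9 against H6 were -0.93 ± 0.13 and -0.85 ± 0.13 (edgeR adjusted p = 3.72e-05 and 6.5e-05). Leaving out H6-1 took AT5G55220 past the limit, to -1.06, and leaving out H9-2 took AT5G58110 to -1.01.

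HSFA2 was the only HSF called lower in H9 than in H6 and higher in H20 than in H15. This factor, itself induced by heat in Arabidopsis, had 80.1, 84.3 and 69.4 RPKM in H6, 2.47, 1.67 and 1.22 in H9, 3.78, 3.39 and 3.21 in H15 and 26.7, 18.9 and 11.99 in H20. H6 pools lay above H20 pools, and the H15 pools lay above the H9 pools by a small margin. The changes were large in H9 against H6 (log2 fold change -5.44 ± 0.31, edgeR adjusted p = 3.32e-08) and in H20 against H15 (log2 fold change 2.48 ± 0.28, edgeR adjusted p = 2.55e-05). In H15 against H9 its 0.94 ± 0.31 stayed under the fold limit, and reached 1.09 with TMM factors, 1.11 with DESeq2 and 1.25 without H9-1.

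HSF4, the class B factor HSFB1, had 97.4, 84.9 and 73.1 RPKM in H6, 19.3, 22.4 and 19.1 in H9, 42.8, 43.04 and 41.9 in H15 and 81.6, 73.1 and 56.4 in H20. The H15 pools stood between those of H9 and H20, and H20 overlapped with H6. HSF4 was called lower in H9 than in H6 (log2 fold change -2.07 ± 0.15, edgeR adjusted p = 2.17e-07) and higher in H15 than in H9 (log2 fold change 1.07 ± 0.15, edgeR adjusted p = 2.43e-05). An unnamed heat shock factor (contig 5001) had 28.2, 16.8 and 24.6 RPKM in H6, 4.75, 4.78 and 3.88 in H9, 10.98, 6.93 and 11.01 in H15 and 5.12, 5.46 and 4.17 in H20, with H6 above all others and the pools of H15 above those of H9 and H20. It was called lower in H9 than in H6 (log2 fold change -2.37 ± 0.24, edgeR adjusted p = 2.74e-06) and higher in H15 than in H9 (log2 fold change 1.10 ± 0.23, edgeR adjusted p = 0.000783). Without H15-3 the call in H15 was lost, at 0.99, and in H20 against H15 its -0.97 reached the limit without H15-2 (-1.16).

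HSF A4A, a class A factor, had 63.9, 51.8 and 53.4 RPKM in H6, 26.97, 28.1 and 23.6 in H9, 23.4, 22.6 and 24.99 in H15 and 31.5, 30 and 32.8 in H20. H6 was highest and the other time points lay close together (log2 fold change -1.10 ± 0.11, edgeR adjusted p = 2.83e-06 for H9 against H6, and -0.89 with DESeq2). HSF3, the factor A-1b that belongs to the group starting the heat response, had 17.9, 19.7 and 21.2 RPKM in H6, 33.4, 33.3 and 36.8 in H9, 23.5, 22.6 and 26.7 in H15 and 16.3, 14.7 and 18.9 in H20. Its H9 pools lay above those of every other time point, but no change passed the fold limit (log2 fold change 0.81 ± 0.12, edgeR adjusted p = 6.99e-05 for H9 against H6, and 1.03 with DESeq2).

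HSFA6B was represented by contigs with different profiles. The longer, 3824, had 22.3, 22.7 and 13.6 RPKM in H6, 11.04, 10.1 and 9.70 in H9, 6.35, 7.25 and 7.22 in H15 and 14.3, 12.04 and 9.52 in H20. The shorter, 7210, had 9.83, 11.8 and 15.2 RPKM in H6, 11.4, 12.9 and 9.65 in H9, 25.1, 21.2 and 20.5 in H15 and 6.72, 9.73 and 6.94 in H20. Contig 3824 was lowest in H15, where contig 7210 was highest, and contig 7210, at 0.98 in H15 against H9 (1.12 with TMM factors), was called lower in H20 than in H15 (log2 fold change -1.52 ± 0.20, edgeR adjusted p = 9.04e-05). Whether these are separate genes cannot be told from the table.

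HSFB3 was the member with the largest gain over the series. It had 2.47, 1.66 and 2.89 RPKM in H6, 8.01, 9.52 and 6.79 in H9, 31.4, 36.9 and 29.8 in H15 and 21.2, 29.97 and 27.3 in H20. H6 pools were the lowest, H9 pools came next, and the H15 and H20 pools overlapped at the top. HSFB3 was the only member called higher in H9 than in H6 (log2 fold change 1.79 ± 0.22, edgeR adjusted p = 1.49e-05), and was called higher again in H15 than in H9 (log2 fold change 2.01 ± 0.20, edgeR adjusted p = 1.96e-06). In H20 it stood 11.2-fold above H6 (log2 fold change 3.48 ± 0.23, edgeR adjusted p = 1.79e-08).

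The level in H20 relative to H6 differed from contig to contig. The mean RPKM in H20 was 13.4% of that in H6 for the median small HSP, with a range of 2.93 to 59.3%. For the other 37 members the median was 55.7%, near the 62.5% of all contigs, and it was 47.1% for HSP100, 53.1% for HSP90, 60.1% for HSP70 and 52.4% for DnaJ contigs. HSP60, cpHsc70-1, AT2G20560 (both contigs), HSF4 and HSF3 had an adjusted p over 0.05 in H20 against H6. All 12 small HSPs were under it and lower in H20, with AT4G21870 at -0.75 ± 0.21 and the others between -5.09 and -1.64. Of all 3622 contigs only 231 were not under it, so passing it is common in this table. By the adjusted p alone, 53.5% of all contigs were lower in H20 than in H6.

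**Figure D5:**
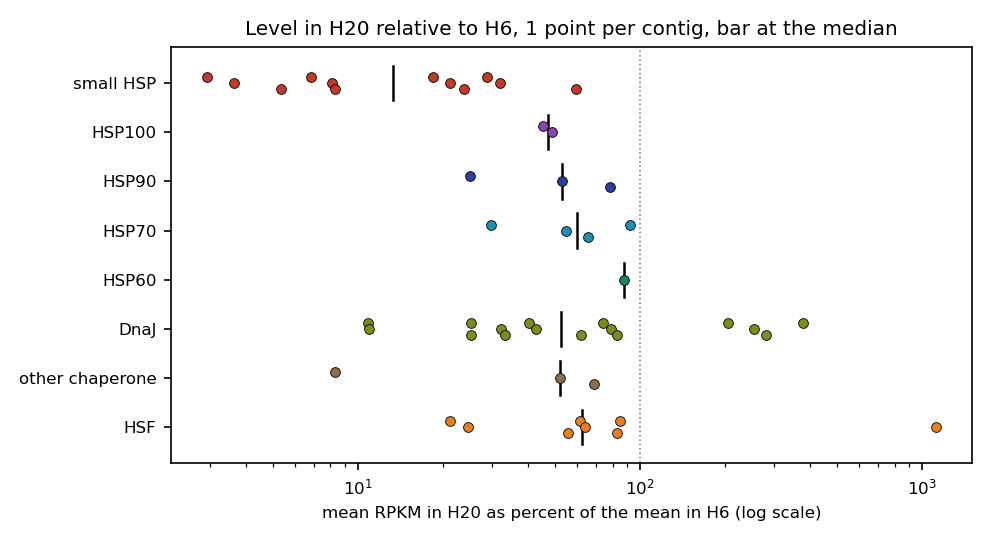
Each point is a member, placed by its mean RPKM in H20 as percent of its mean in H6 (log scale), in rows by class, with a bar at the class median and a dotted line at 100%. Small HSPs have their median at 13.4%, HSP60 stands at 87.6%, and 4 DnaJ contigs and HSFB3 lie right of the line.

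Pools of the same time point differed in which chaperones they held. In H6, small HSPs took 1.13, 1.23 and 1.62% of the mapped reads of pools 1, 2 and 3, whereas HSP90 contigs took 0.979, 0.810 and 0.656% and HSP70 contigs 0.562, 0.495 and 0.408%. H6-3 was the highest in small HSPs and the lowest in HSP90, HSP70 and HSP100. Of the 12 small HSPs, 5 were over 1.5 times higher in H6-3 than in H6-1 (heat shock protein 18, contig 1629, AT1G52560, AT5G37670 and HSP17.6II) and 1, HSP21, was over 1.5 times higher in H6-1. HSP90.1 was 1.54 times and AT2G20560 1.64 and 2.27 times higher in H6-1 than in H6-3. Over all contigs, 9.06% were over 1.5 times higher in H6-3 and 13.1% in H6-1. In H20, 5 of the 49 members were over 1.5 times higher in pool 1 than in pool 3. They were HSP21 (3.08 times), ATJ3 (2.92), HSFA2 (2.23) and AT2G20560 (2.27 for contig 7704, 1.56 for contig 3460). The other way, 2 members, J8 and AT1G52560, were over 1.5 times higher in pool 3. Over all contigs, 2.02% were over 1.5 times higher in H20-1 and 3.75% in H20-3. Each of these ratios rests on single pools and has no replicate.

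AtHSP101, the cytosolic disaggregase, belongs to the HSP100 family but was left out by the words of the rule. It had 1278, 1027 and 847 RPKM in H6, 8.67, 5.96 and 5.09 in H9, 7.06, 6.34 and 7.93 in H15 and 529, 408 and 346 in H20. H9 and H15 overlapped, and the rise in H20 against H15 was the largest of the whole table (log2 fold change 5.91 ± 0.26, edgeR adjusted p = 1.35e-08) and followed a fall in H9 against H6 (log2 fold change -7.32 ± 0.28, edgeR adjusted p = 1.8e-09). BAG proteins bind HSP70 as cochaperones. The 4 BAG6 contigs may be fragments of the same transcript, and so may not be separate results. All were called lower in H9 than in H6 (-3.31 to -2.38), as were 17.8% of all contigs. They were also called lower in H15 than in H9 (-1.80 to -1.13, 25.1% of all contigs) and higher in H20 than in H15 (1.02 to 2.03, 5.58% of all contigs). The most abundant of them, contig 415, had 3389, 4146 and 8598 RPKM in H6, 654, 663 and 332 in H9, 249, 301 and 204 in H15 and 485, 553 and 491 in H20, again with H6-3 highest.

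BAG5 had 129, 99.98 and 64.7 RPKM in H6, 9.53, 7.60 and 9.93 in H9, 11.8, 13.3 and 11.8 in H15 and 151, 113 and 47.5 in H20. Its H20 pools overlapped with those of H6 (log2 fold change 0.08 ± 0.33), after a fall in H9 against H6 (log2 fold change -3.44 ± 0.37, edgeR adjusted p = 4.7e-06). BAG7, of the endoplasmic reticulum in Arabidopsis, rose instead, with 64.05, 65.7 and 51.7 RPKM in H6, 94.3, 94.9 and 109 in H9, 143, 149 and 118 in H15 and 179, 205 and 188 in H20 (log2 fold change 1.66 ± 0.13, edgeR adjusted p = 7.24e-08 for H20 against H6). HIP1, an HSP70-interacting protein, was called in no comparison, with means of 422, 239, 131 and 243 RPKM from H6 to H20. With these 8 contigs added, 37 of 57 were called lower in H9 than in H6 and 30 were called higher in H20 than in H15, beside 17.8% and 5.58% of all contigs.

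Most heat response genes of a list outside the members were also lower in H9 than in H6. This list of HSF targets and partners matched 15 contigs, from 12 of 35 symbols. In H9, 13 of the 15 were called lower than in H6, and in H20 8 were called higher and 2 lower than in H15 (17.8%, 5.58% and 8.01% of all contigs), with medians of -1.61 and 1.07. The largest changes in H9 against H6 were those of APX2, a cytosolic ascorbate peroxidase (contig 1671, -6.10 in H9 against H6 and 3.96 in H20 against H15), the plastid protease FTSH6 (-4.23 and 2.79) and HSA32, which sustains acquired thermotolerance in Arabidopsis (-4.11 and 2.13 for contig 5973, -3.69 and 2.68 for contig 4186). Another APX2 contig, 703, changed far less, at -1.61 and 0.56. Outside the members, 31 contigs carried the annotation term response to heat. Many contigs of the list are among them (those of APX2, FTSH6, MBF1C, MIPS2, TIL, BOB1 and Fes1A), so the counts of the list and of this set are not independent. Of the 31 contigs, 23 were called lower in H9 than in H6, 3 higher, and 12 higher in H20 than in H15 (17.8%, 18.4% and 5.58% of all contigs). Of the 18 members with that term, 15 were called lower in H9 than in H6 and 12 higher in H20 than in H15, beside the same 17.8% and 5.58%.

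Lists of other folding genes, some of which also carry the term response to heat, gave lower levels in H9 too. The 6 chaperonin contigs were all called lower in H9 than in H6 (-2.02 to -1.51, median -1.72), led by contigs 6264 and 3026 for chaperonin 10, CPN20 and CPN60A, and 3 were called higher in H20 than in H15 (17.8% and 5.58% of all contigs). From a list for folding in the endoplasmic reticulum, 3 of 26 symbols matched: PDIL2-2, BIP1 and PDIL1-1, at -1.98, -1.41 and -1.29 in H9 against H6 and 0.20 to 0.29 in H20 against H15. Of 8 contigs for antioxidant enzymes, 3 were called lower in H9 than in H6 (GSTU25 contig 1971, GSTU19 and CSD2, at -2.54, -1.99 and -1.99) and 1 was called higher (APX3 contig 8690, 1.14), beside 17.8% and 18.4% of all contigs. Other contigs of the same names were not called: GSTU25 contig 609 was at -0.09, and APX3 contigs 9905 and 8166 at -0.69 and -0.33. The values of H20 against H15 ran from -0.67 to 0.80 in the antioxidant list. A list of 26 dehydration and abscisic acid symbols matched no contig of the table.

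The contigs most like the small HSPs were ranked by Pearson correlation, over the 12 libraries, of log2(RPKM + 1) with the mean standardised profile of the 12 small HSPs. Among contigs with a symbol outside the members, the closest were AT3G10020, of unknown function (r = 0.999), FRO1, a subunit of mitochondrial complex I (0.995), the splicing factor SMP1 (0.992), AT1G23740, an alkenal reductase (0.991), APX2 (0.990), AT1G30070 (0.989), HSA32 (0.985), AT3G12050, with the domain of the HSP90 activator Aha1 (0.985), AT5G37340 (0.982) and AT1G10310 (0.981). All points share the same libraries and their depth, so this is a description. The median r was 0.869 for the other 37 members and 0.059 over all contigs. The small HSPs make up the profile, so their own r is not set beside these. AT3G10020 had means of 574, 6.00, 4.62 and 46.7 RPKM from H6 to H20.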

How the data were processed

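The deposited table gives, for each contig and library, the count of reads mapped to that contig alone and its RPKM. In CLC Genomics Workbench, the authors trimmed and deduplicated the reads, built a de novo assembly from all libraries and mapped each library to it, then annotated the contigs with Blast2GO against Arabidopsis proteins. The deposited RPKM values are scaled to contig length and to the mapped reads of the library. The authors kept contigs that passed an ANOVA over the time points, a fold change and an RPKM difference, and their deposited FDR p-value and mean RPKM columns were not used here. The labels and the methods give different read lengths, so none is stated.

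Mapped reads per library (13413483 to 25855405) were recovered from count, length and RPKM of contigs at 300 RPKM or more. Counts of all 3622 contigs and 12 libraries were fitted with edgeR's quasi-likelihood test, with those totals and no further factor, since TMM takes most contigs as unchanged. Adjusted p-values (Benjamini-Hochberg) run over all 3622 contigs in each of 4 comparisons. Calls needed an adjusted p below 0.05 and more than 1 log2 unit of change. The alternatives were TMM factors, filterByExpr, a replicate block, DESeq2, limma on log2(RPKM + 1), leaving out each pool, adjusted p alone, and other member sets, of which adding the same families and leaving out small HSPs were chosen after seeing the data. Members and gene lists were chosen with earlier results of these data known. Values per library are given, in each class, for up to 3 contigs with the highest mean RPKM and up to 3 with the largest change of H9 against H6, for every HSF, and for contigs of the same families. HSP21 and AT4G21870 were added after their values were seen. The main edgeR fit was tested on simulated data, in H20 against H6. No contig sequence was used here. R 4.3.3, edgeR 4.0.16, limma 3.58.1, DESeq2 1.42.0, Python 3.11.15, numpy 2.4.6, pandas 2.3.3 and matplotlib 3.10.9 were used.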

Additional observations from a re-analysis of the deposited data

How the results depend on the processing

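Over the 17 alternatives that change the scaling, the filter, the model or the pools, none of the 196 results of a member in a comparison reversed a call, and 27 changed their call under at least 1. The adjusted p alone, which drops the fold limit, is not among these 17. With DESeq2, 2 members were called higher in H9 than in H6, with a median log2 fold change of -1.09, and the median of H20 against H6 was -0.74. DESeq2 also called 842 contigs of the table higher and 733 lower in H15 than in H9 (689 and 908 with mapped totals), and 1402 higher and 1007 lower in H20 than in H6 (1164 and 1503). With the adjusted p alone, 6 members were called higher in H9 than in H6, 12 higher and 17 lower in H15 than in H9, and 8 lower in H20 than in H15. Without members found only by the words chaperone or DnaJ, the medians were -2.54 in H9 against H6 and 1.70 in H20 against H15. Of these 37 members, 2 were called higher in H20 than in H6 (32.1% of all contigs). With the contigs of the same families, the median of H9 against H6 was -1.81 and 10 of 57 contigs were called lower in H15 than in H9 (25.1% of all contigs). Without small HSPs, 20 of 37 members were called lower in H9 than in H6 (median -1.06), 3 lower in H15 than in H9, 13 higher in H20 than in H15 (median 0.38) and 15 lower in H20 than in H6 (median -0.84). Of all contigs, 17.8%, 25.1%, 5.58% and 41.5% had these calls, the last near the share of the members. These alternatives change the members or the scaling; no other cause was tested.

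Leaving out each pool gave 30 to 32 members lower in H9 than in H6, 23 to 24 higher in H20 than in H15, 24 to 27 lower in H20 than in H6, and medians of H20 against H6 from -1.26 to -0.96. Pools of the same number did not deviate together (r from -0.13 to 0.18 for number 1, -0.16 to 0.26 for 2 and -0.28 to 0.07 for 3), so the numbers do not pair the pools. A fit with the replicate block gave 1 member higher and 31 lower in H9 than in H6, 6 and 6 in H15 against H9, 24 and 3 in H20 against H15, and 5 and 26 in H20 against H6, with medians of -1.31, -0.21, 0.94 and -1.13. Depth limits the lowest values, also those of members that were abundant in H6. The lowest count, 18 reads, was that of AT5G37670, with a mean of 731 RPKM in H6 and 2.15 RPKM in H15.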
